A study of Homo sapiens with 20 samples.

Results

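The genes described here are 10 target genes of the tumour suppressor p53, MDM2, CDKN1A, BTG2, TP53INP1, SESN1, ZMAT3, TP53I3, PHLDA3, FAS and GDF15, out of 19593 genes measured in the series. They were chosen by name, with earlier results of these data known. Each gene was represented by the annotated transcript that held most of its reads over all libraries. The cells were MM1.S, a human multiple myeloma line of wild-type genotype. They received 10 nM dCBP-30, a bifunctional degrader that brings CBP and p300 to the E3 ligase component cereblon, or the solvent DMSO, for 2, 6 or 24 h, with 3 libraries of each treatment at each time. All 18 of these libraries came from cells given 4-thiouridine (4sU) for 1 h, and 2 further libraries came from cells without 4sU. The assay was SLAM-seq, in which RNA made during the 4sU hour is read with T-to-C conversions. A T>C read, one with at least such a conversion, therefore counts newly made RNA, all reads of a gene count its total RNA, and their ratio is the labelled share.

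The p53 protein binds a repeated decamer in promoters and first introns and turns on genes that stop the cell cycle, start apoptosis or change metabolism. CBP and p300, encoded by CREBBP and EP300, are acetyltransferases that p53 recruits through its activation domain, and they acetylate both p53 and the histones near its binding sites. MDM2 closes a feedback loop, since p53 induces it and the MDM2 protein sends p53 to the proteasome.

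The p53 response element, 2 adjoining decamers without a spacer, was searched on both strands in hg38, with the 4 core C and G bases required. The search covered 3000 bases on each side of the start of the transcript that Ensembl names as canonical for the gene. This transcript can differ from the one whose reads were counted. Allowing up to 2 mismatches, a limit set after the hits were seen, 6 of the 10 genes held a match against 4.72% of all 19593 windows of this length, and ZMAT3 held the only one without mismatches among the 10, a kind found in 0.0817% of windows. These 6 are shown because they hold the letters that p53 is known to bind. The capitals mark the core C, the 2 bases after it and the core G of each decamer. A match is a description of the letters and not a measured binding site.
BTG2: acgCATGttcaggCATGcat
CDKN1A: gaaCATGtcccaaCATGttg
FAS: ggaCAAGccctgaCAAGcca
GDF15: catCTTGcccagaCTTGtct
MDM2: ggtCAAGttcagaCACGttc
ZMAT3: aaaCAAGtccagaCATGcct
The BTG2 match lay at chr1:203303642-203303661 on the plus strand, 1868 bases upstream of the start, and the CDKN1A match at chr6:36676449-36676468 on the plus strand, 2256 bases upstream. The GDF15 match lay at chr19:18385308-18385327 on the plus strand, 841 bases upstream. The other 3 were in intron 1 of the canonical transcript. They were at chr10:88991309-88991328 on the plus strand for FAS, 520 bases downstream of the start, at chr12:68808923-68808942 on the plus strand for MDM2, 755 bases downstream, and at chr3:179070188-179070207 on the minus strand for ZMAT3, 1611 bases downstream. The best match of TP53I3 had 3 mismatches, and those of PHLDA3, SESN1 and TP53INP1 had 5.

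Libraries held 12439665 to 18727385 reads on the transcripts that represented the genes, and percentages and levels refer to these reads. After 2 h the percentage of reads with T>C was 5.54 ± 0.138 (SD, n = 3) in dCBP-30 against 6.08 ± 0.0776 in DMSO, with 4.98 ± 0.285 against 6.38 ± 0.182 at 6 h and 6.38 ± 0.475 against 8.31 ± 0.266 at 24 h. It was 0.794 and 0.809 in the libraries without 4sU. At 24 h the T>C reads of the dCBP-30 libraries also carried fewer conversions each, 1.47 ± 0.0432 against 2.48 ± 0.0253 in DMSO. The 8 plasma cell markers checked were read in all 18 labelled libraries. Their lowest levels in a library ran from 3.46 RPM (TNFRSF17) to 132 RPM (SDC1). Their medians in DMSO ran from 131 RPM (CD38) to 1558 RPM (MZB1). Of 8 markers of other cell types, CD3E (2.08 to 15.7 RPM), PECAM1 (2.41 to 15.7 RPM) and HBB (0.888 to 11.02 RPM) were read in all of them, COL1A1, CD14, LYZ and ALB reached at most 29, 6, 11 and 17 reads, and EPCAM was at 0. Levels are given as RPM, reads per 1000000 reads of the library on the transcripts used, after that total was multiplied by its TMM factor. The factor corrects for the makeup of the library, and the same scale served T>C and total reads. These factors were 0.873 to 0.935 in DMSO but 1.11 to 1.14 and 1.29 to 1.32 in dCBP-30 at 6 and 24 h, so that the scale itself bears on small changes. The median log2 change of all genes in T>C reads was 0.05, -0.27 and -0.69 at 2, 6 and 24 h, and 0.15, 0.04 and -0.16 without the factors. In total reads it was 0.02 and 0.05 at 6 and 24 h, and 0.35 and 0.58 without them. The labels do not say whether libraries came from separate cultures, so p-values measure the spread between these libraries. In bulk RNA, fewer cells and less RNA per cell cannot be told apart.

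T>C reads of CDKN1A, BTG2, TP53INP1 and MDM2 fell at every time, SESN1 fell at 6 and 24 h, and ZMAT3 rose at 24 h. Of the 10 genes, 7 had enough T>C reads to be tested, with GDF15, TP53I3 and FAS left out. At 2 h 4 fell and 0 rose at an adjusted p under 0.05 in edgeR's quasi-likelihood test (Benjamini-Hochberg), against 8.35% of all tested genes that fell and 2.45% that rose. At 6 h 5 fell, with 21.3% of all genes lower, and 0 rose, with 3.02% higher. At 24 h 5 fell and 1 rose, with 37.1% of all genes lower and 2.78% higher. Where 0 rose, 0 also rose at an unadjusted p under 0.05, and DESeq2 called 0. The median log2 change over the 7 was -1.05, -1.24 and -1.11 at the 3 times, beside the medians of all genes given above. The count at 24 h became 3 lower without the TMM factors and also 3 without replicate 2 of dCBP-30, since BTG2 and SESN1 then missed the threshold. The lower number of conversions per T>C read in the dCBP-30 libraries at 24 h, given above, moves with every T>C value at that time, and its part in the result was not tested.

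**Figure D1:**
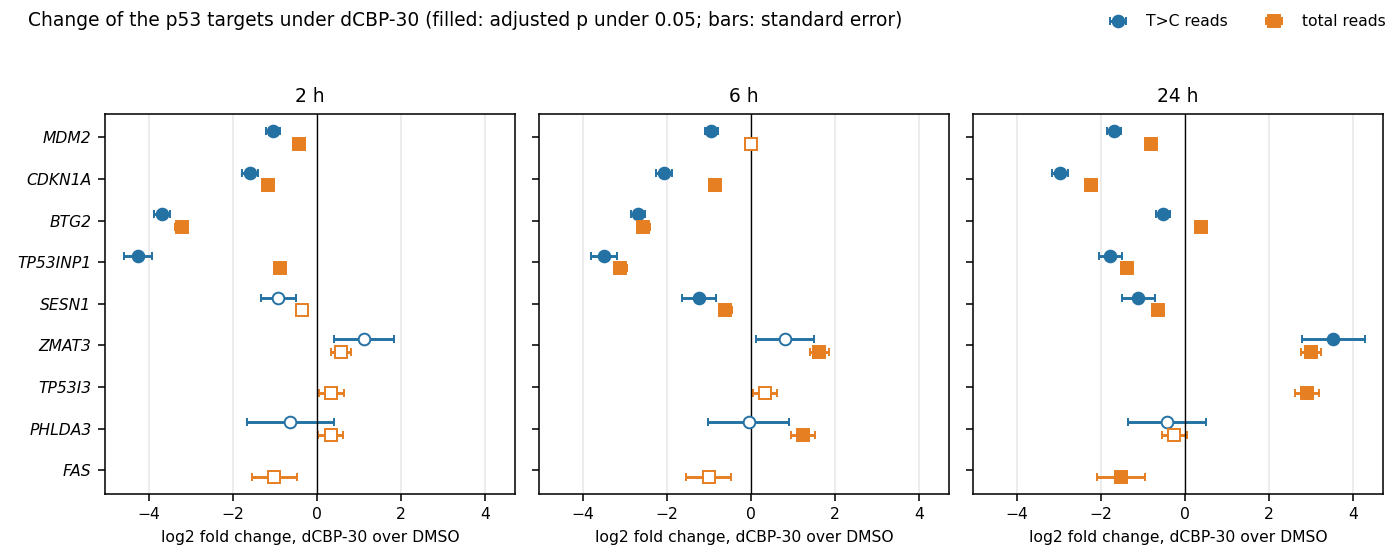
Log2 change of dCBP-30 over DMSO at 2, 6 and 24 h in T>C reads and in total reads, with a point per tested gene and bars of 1 SE, filled where the adjusted p was under 0.05. CDKN1A lay below 0 in both measures at every time, from -1.61 to -2.98 in T>C reads, while BTG2 moved from -3.22 to 0.38 and ZMAT3 from 0.56 to 2.998 in total reads.

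In total reads MDM2, CDKN1A, BTG2 and TP53INP1 were lower at 2 h, ZMAT3 and PHLDA3 were higher at 6 h, and TP53I3, ZMAT3 and BTG2 were higher at 24 h. Of 9 tested genes, GDF15 being left out, 4 fell and 0 rose at 2 h, against 2.67% of all genes lower and 1.54% higher. ZMAT3 alone rose at an unadjusted p under 0.05 there, and DESeq2 called 0. At 6 h 4 fell and 2 rose, against 21.5% lower and 18.8% higher, and at 24 h 5 fell and 3 rose, against 29.9% lower and 28.6% higher, so that the shares that rose were near those of all genes. The median log2 change of the 9 was -0.43, -0.61 and -0.64, where that of all genes was between -0.00 and 0.05. Without the TMM factors 3 of the 9 fell at 24 h.

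MDM2 encodes the E3 ligase that ubiquitinates p53, and it was read over a 3′ UTR of 5695 bases at chr12:68839850-68845544. Its T>C level was 37.0, 42.4 and 31.2 RPM after 2 h of dCBP-30 and 75.1, 73.9 and 80.1 RPM in DMSO. At 6 h it was 40.1, 32.8 and 49.7 RPM against 71.6, 80.7 and 84.2 RPM, and at 24 h 30.9, 28.0 and 35.4 RPM against 92.4, 105 and 107 RPM. All 9 dCBP-30 libraries were below all 9 DMSO libraries. The log2 fold changes were -1.05 (SE 0.16, adjusted p = 4.2e-07), -0.95 (SE 0.16, adjusted p = 1.8e-06) and -1.69 (SE 0.16, adjusted p = 1.7e-13).

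Total MDM2 RNA fell at 2 and 24 h. It was 251, 245 and 247 RPM against 323, 326 and 349 RPM at 2 h, a log2 change of -0.43 (SE 0.096, adjusted p = 0.0079). At 6 h the groups overlapped, with 319, 362 and 372 RPM in dCBP-30 and 342, 370 and 351 RPM in DMSO, and the change was -0.01 (SE 0.096, adjusted p = 0.94). At 24 h dCBP-30 libraries were lower again, at 172, 195 and 207 RPM against 331, 344 and 332 RPM, by -0.81 on the log2 scale (SE 0.096, adjusted p = 9.3e-08). The 2 h call was lost when that time was fitted alone (adjusted p = 0.057). Without the TMM factors the changes were -0.32 (adjusted p = 0.056), 0.31 (adjusted p = 0.013) and -0.29 (adjusted p = 0.013), so the sign at 6 h depended on the scale.

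CDKN1A encodes p21, the inhibitor of cyclin-dependent kinases through which p53 arrests the cell cycle, and its 3′ UTR of 1537 bases lies at chr6:36685801-36687337. New CDKN1A RNA was 11.5, 17.3 and 13.8 RPM at 2 h of dCBP-30 against 40.5, 43.6 and 45.9 RPM in DMSO, and 10.1, 11.2 and 11.03 RPM against 48.9, 39.2 and 47.4 RPM at 6 h. By 24 h it was 5.03, 4.72 and 8.10 RPM against 45.2, 48.6 and 47.0 RPM. No dCBP-30 library reached the lowest DMSO library at any time, and the mean was 0.327 of the DMSO mean at 2 h and 0.127 at 24 h. The log2 fold changes in T>C reads were -1.61 (SE 0.19, adjusted p = 5.6e-10), -2.07 (SE 0.19, adjusted p = 1.2e-13) and -2.98 (SE 0.20, adjusted p = 3.6e-19).

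The total RNA of CDKN1A fell at all 3 times. It was 53.9, 73.5 and 53.8 RPM against 121, 153 and 130 RPM at 2 h, 58.8, 66.4 and 78.3 RPM against 128, 119 and 124 RPM at 6 h, and 23.1, 26.0 and 21.4 RPM against 111, 111 and 109 RPM at 24 h. The groups were separate at each time. The log2 changes were -1.16 (SE 0.13, adjusted p = 1.2e-06), -0.87 (SE 0.13, adjusted p = 9.6e-06) and -2.23 (SE 0.14, adjusted p = 7.0e-13).

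BTG2 encodes an antiproliferative protein that recruits the CCR4-NOT deadenylase, and it was read at chr1:203307439-203309602. Its new RNA fell steeply and was nearer to DMSO at 24 h. After 2 h of dCBP-30 its T>C level was 8.02, 7.85 and 7.82 RPM against 90.3, 110 and 107 RPM in DMSO, which is 0.0772 of the DMSO mean. The level was 19.6, 14.9 and 17.0 RPM against 104, 106 and 123 RPM at 6 h, and 81.1, 71.0 and 124 RPM against 142, 133 and 122 RPM at 24 h, where replicate 3 of dCBP-30 overlapped the DMSO libraries. The log2 fold changes were -3.70 (SE 0.18, adjusted p = 6.0e-25), -2.70 (SE 0.17, adjusted p = 1.8e-20) and -0.53 (SE 0.16, adjusted p = 0.0051). The small fall at 24 h was lost without replicate 2 of dCBP-30 (-0.37, adjusted p = 0.070) and without the TMM factors (-0.01, adjusted p = 0.98), and scaling by T>C reads turned it to 0.11 (adjusted p = 0.63).

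Total BTG2 RNA went from far below to above DMSO. At 2 h it was 13.1, 17.3 and 14.2 RPM against 133, 143 and 142 RPM, a log2 change of -3.22 (SE 0.16, adjusted p = 3.5e-13), and at 6 h 31.2, 22.5 and 25.4 RPM against 151, 146 and 171 RPM, a change of -2.57 (SE 0.15, adjusted p = 4.1e-13). At 24 h it was 201, 170 and 261 RPM in dCBP-30 and 169, 169 and 147 RPM in DMSO, with dCBP-30 replicate 2 just above the highest DMSO libraries. That rise of 0.38 (SE 0.14, adjusted p = 0.022) was lost without replicate 3 of dCBP-30 (0.20, adjusted p = 0.24) or without replicate 3 of DMSO (0.32, adjusted p = 0.098). It was 0.90 without the TMM factors.

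TP53INP1 encodes a stress protein that acts in p53 activation and in autophagy, and its 3′ UTR of 4773 bases lies in 2 pieces at chr8:94925972-94932085. After 2 h of dCBP-30 its T>C level was 0.690, 0.792 and 1.19 RPM against 16.6, 18.9 and 17.5 RPM in DMSO, or 0.0504 of the DMSO mean. It was 1.68, 0.833 and 2.21 RPM against 17.5, 17.97 and 18.1 RPM at 6 h, and 4.38, 2.91 and 6.87 RPM against 18.3, 15.1 and 15.4 RPM at 24 h. The groups were separate at all 3 times, and the gap was smaller at 24 h than before. The log2 fold changes were -4.28 (SE 0.33, adjusted p = 3.0e-16), -3.51 (SE 0.31, adjusted p = 1.3e-14) and -1.78 (SE 0.27, adjusted p = 2.3e-07).

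Total TP53INP1 RNA was lowest at 6 h. It was 45.5, 49.3 and 56.1 RPM against 93.1, 93.4 and 90.4 RPM at 2 h, 13.9, 10.3 and 11.3 RPM against 109, 103 and 96.2 RPM at 6 h, and 34.97, 24.3 and 34.7 RPM against 82.9, 81.9 and 79.4 RPM at 24 h. Every dCBP-30 library was below every DMSO library. Its log2 changes were -0.88 (SE 0.14, adjusted p = 1.1e-04), -3.11 (SE 0.15, adjusted p = 7.8e-15) and -1.38 (SE 0.14, adjusted p = 4.5e-09).

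**Figure D2:**
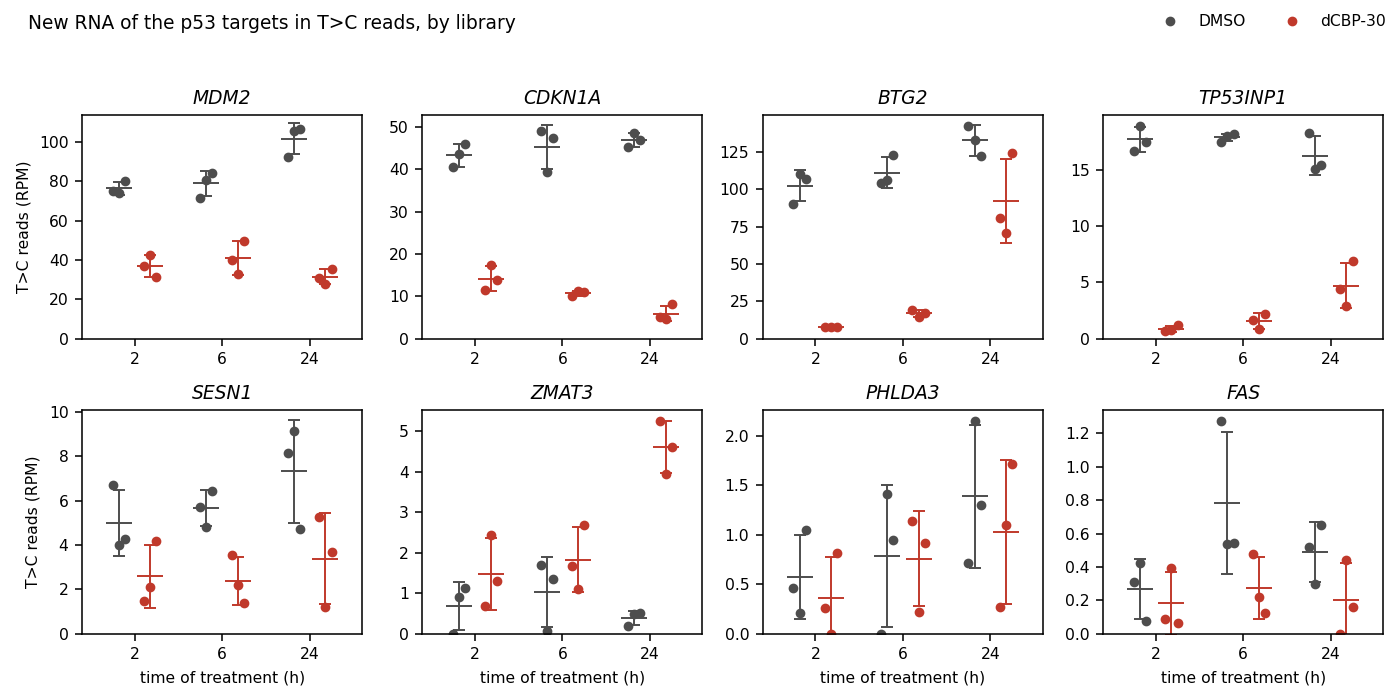
T>C reads of each gene except TP53I3 and GDF15 in every labelled library, in RPM on the vertical axis. Shown are dCBP-30 and DMSO at 2, 6 and 24 h, with a point per library and a bar for the mean with its SD (n = 3). MDM2, CDKN1A and TP53INP1 were below DMSO in all dCBP-30 libraries, and BTG2 rose from 7.90 ± 0.107 RPM at 2 h to 92.1 ± 28.3 RPM at 24 h under dCBP-30.

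SESN1 encodes a sestrin, which restrains mTORC1, and was read at chr6:108984309-108987543. Its T>C level was 1.47, 2.11 and 4.19 RPM against 6.70, 4.02 and 4.26 RPM at 2 h, 3.53, 2.22 and 1.41 RPM against 5.73, 4.83 and 6.44 RPM at 6 h, and 5.25, 1.21 and 3.70 RPM against 8.16, 9.12 and 4.71 RPM at 24 h. The groups overlapped at 2 and 24 h and were separate at 6 h. The log2 changes were -0.92 (SE 0.41, adjusted p = 0.17), -1.24 (SE 0.41, adjusted p = 0.019) and -1.11 (SE 0.40, adjusted p = 0.020). Both calls were lost under other settings. Without the TMM factors they were -0.93 (adjusted p = 0.10) and -0.60 (adjusted p = 0.27), with summed transcripts -1.22 (adjusted p = 0.097) and -1.12 (adjusted p = 0.085), and with scaling by T>C reads -0.92 (adjusted p = 0.10) and -0.49 (adjusted p = 0.38). DESeq2 with T>C size factors gave -0.86 (adjusted p = 0.15) and -0.39 (adjusted p = 0.53), and subtracting the background left -1.15 (adjusted p = 0.051) at 24 h. Leaving out 1 library ended the 6 h call in 3 cases (DMSO replicate 3, dCBP-30 replicates 2 and 3, at -0.98 to -1.19) and the 24 h call in 3 (DMSO replicates 1 and 2, dCBP-30 replicate 2, at -0.71 to -1.03), and the call at 2 h was made without dCBP-30 replicate 3 (-1.47, adjusted p = 0.041).

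Total SESN1 RNA was 21.7, 19.6 and 25.4 RPM against 27.6, 32.3 and 26.0 RPM at 2 h, a change of -0.36 (SE 0.15, adjusted p = 0.20). It fell at 6 h, with 21.0, 18.1 and 17.9 RPM against 28.2, 29.2 and 29.9 RPM and a log2 change of -0.61 (SE 0.15, adjusted p = 0.0018). At 24 h it was 20.1, 20.5 and 23.7 RPM against 32.6, 33.3 and 34.7 RPM, a change of -0.64 (SE 0.15, adjusted p = 5.6e-04). The groups were separate at each time on this scale. Without the TMM factors the changes at 6 and 24 h were -0.30 (adjusted p = 0.097) and -0.12 (adjusted p = 0.47).

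ZMAT3 encodes a zinc-finger protein that binds RNA, and its 3′ UTR of 7794 bases lies at chr3:179017223-179025016. It was the tested gene of the 10 whose new RNA rose. Its total level was 6.64, 9.11 and 9.64 RPM at 2 h of dCBP-30 against 4.93, 5.50 and 6.87 RPM in DMSO, 22.5, 19.4 and 23.9 RPM against 6.30, 6.57 and 8.41 RPM at 6 h, and 49.3, 51.2 and 49.7 RPM against 9.39, 5.01 and 4.35 RPM at 24 h. The groups overlapped at 2 h and were far apart at 24 h, where the means differed 8.01-fold. Total ZMAT3 changed on the log2 scale by 0.56 (SE 0.24, adjusted p = 0.23), 1.63 (SE 0.23, adjusted p = 3.3e-06) and 2.998 (SE 0.24, adjusted p = 7.0e-11).

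New ZMAT3 RNA was sparse, with 0.690, 2.44 and 1.31 RPM against 0, 0.917 and 1.12 RPM at 2 h and 1.68, 1.11 and 2.70 RPM against 1.70, 0.067 and 1.36 RPM at 6 h, and the groups overlapped. At 24 h it was 5.25, 3.96 and 4.61 RPM against 0.194, 0.477 and 0.508 RPM, with no overlap. New ZMAT3 RNA changed on the log2 scale by 1.12 (SE 0.71, adjusted p = 0.39), 0.81 (SE 0.68, adjusted p = 0.45) and 3.53 (SE 0.75, adjusted p = 9.5e-05). In the libraries without 4sU 1 of 82 and 7 of 90 ZMAT3 reads, 1.22 and 7.78%, carried a T>C conversion. With this background subtracted the change at 24 h was 3.65 (adjusted p = 0.014).

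TP53I3 encodes a protein related to quinone oxidoreductases that p53 induces on the way to apoptosis. It was read over a 3′ UTR of only 146 bases, at chr2:24077433-24077578, which holds 21 T positions, and its T>C level of 0 to 1.04 RPM was too low to test. Total TP53I3 RNA was 4.92, 6.14 and 5.51 RPM against 4.77, 2.47 and 5.90 RPM at 2 h and 8.14, 5.61 and 4.90 RPM against 3.75, 5.23 and 5.90 RPM at 6 h. At both times the groups overlapped, with log2 changes of 0.34 (SE 0.29, adjusted p = 0.62) and 0.32 (SE 0.28, adjusted p = 0.38). At 24 h it was 38.1, 38.9 and 37.8 RPM against 6.87, 4.77 and 3.70 RPM, a 7.49-fold difference of means. The rise was 2.90 on the log2 scale (SE 0.28, adjusted p = 3.1e-09).

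PHLDA3 encodes a small pleckstrin-homology protein that competes with AKT for the membrane, and was read at chr1:201464278-201468402. Its total level was higher at 6 h, at 14.6, 12.2 and 22.2 RPM against 6.87, 7.31 and 6.58 RPM, with no overlap and a log2 change of 1.24 (SE 0.29, adjusted p = 0.0015). At 2 h it was 7.07, 7.06 and 5.63 RPM against 3.23, 6.63 and 5.90 RPM, and at 24 h 3.45, 7.36 and 7.08 RPM against 6.996, 7.04 and 7.32 RPM. Both of these overlapped, with changes of 0.32 (SE 0.30, adjusted p = 0.67) and -0.25 (SE 0.30, adjusted p = 0.47). Its T>C level lay between 0 and 2.15 RPM and overlapped at all 3 times.

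FAS encodes a death receptor and GDF15 a secreted member of the TGF-β family, and both were barely read. Total FAS RNA was 2.42, 2.44 and 1.38 RPM against 5.54, 3.88 and 3.21 RPM at 2 h, 3.23, 1.44 and 0.490 RPM against 2.55, 4.29 and 3.59 RPM at 6 h, and 1.15, 0.604 and 0.590 RPM against 2.40, 1.31 and 3.12 RPM at 24 h. The groups overlapped at 6 h only. The log2 changes were -1.02 (SE 0.53, adjusted p = 0.35), -1.01 (SE 0.53, adjusted p = 0.14) and -1.53 (SE 0.57, adjusted p = 0.024). The call at 24 h was lost without DMSO replicate 1 or 3 or dCBP-30 replicate 2 or 3, at -1.24 to -1.49. It was also lost without the TMM factors (-1.01, adjusted p = 0.12) and with summed transcripts (-1.58, adjusted p = 0.074). The 6 h change became -1.83 (adjusted p = 0.019) without dCBP-30 replicate 1. GDF15 had 0 to 14 reads in a library, 47 in the 18 labelled libraries together and 1 T>C read among them, so no change was detectable at this depth.

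**Figure D3:**
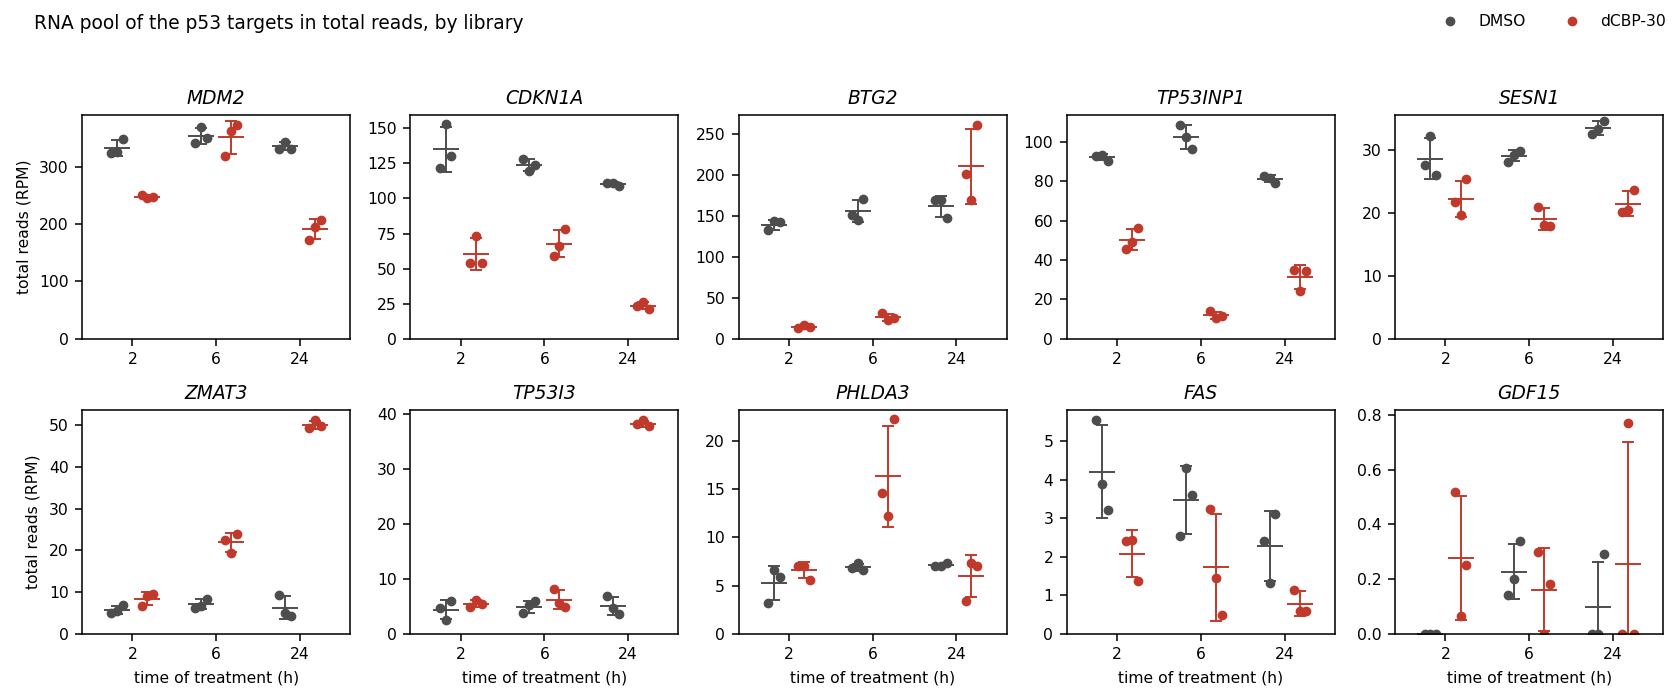
Total reads of each gene in every labelled library, in RPM on the vertical axis, for dCBP-30 and DMSO at 2, 6 and 24 h, with a point per library and a bar for the mean with its SD (n = 3). At 24 h ZMAT3 at 50.1 ± 0.995 RPM and TP53I3 at 38.3 ± 0.551 RPM stood above DMSO at 6.25 ± 2.74 and 5.11 ± 1.61 RPM, while CDKN1A stood below it.

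The labelled share, T>C reads over all reads of the gene, is higher for RNAs that are renewed quickly, and it also depends on the number of T positions a read covers. Under DMSO the pooled share of BTG2 was 75.9%, higher than in 99.8% of the 7688 genes with at least 100 reads in each DMSO library, whose median was 9.15%. CDKN1A at 36.9%, MDM2 at 25.2%, SESN1 at 19.9% and TP53INP1 at 18.8% were above 96.4%, 89.8%, 83.3% and 81.1% of these genes. Reads of these genes covered 23.1 (CDKN1A) to 30.9 (TP53INP1) T positions, where the median gene had 24.4. In the libraries without 4sU the shares of these 5 genes were 0.392% to 1.47%. The pentamer ATTTA, read on the RNA strand and counted with overlaps inside longer matches, stood in the 3′ UTR of 9 of the 10 genes and in 68.2% of all 3′ UTRs, and the nonamer TTATTTATT, which contains it, in those of MDM2, GDF15 and TP53INP1 and in 8.17% of all. Longer 3′ UTRs have more room for either motif. Per kb the pentamer count was 0.924 in BTG2, 1.95 in CDKN1A, 2.78 in SESN1, 2.93 in TP53INP1 and 4.04 in MDM2. The median of all 3′ UTRs was 1.36, and a relation to the shares was not tested.

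The share fell in 3 of the 7 tested genes at 2 h, against 5.13% of all genes, in 2 at 6 h, against 6.86%, and in 3 at 24 h, against 25.6%. The median change of all genes in log2 odds was 0.02, -0.34 and -0.79 at the 3 times. It rose in 0 of the 7 at each time, where 1.00%, 0.208% and 0.208% of all genes rose. At an unadjusted p under 0.05 in edgeR 0 rose as well. In MDM2 the share was 14.8, 17.3 and 12.6% against 23.2, 22.7 and 22.9% at 2 h, 12.6, 9.05 and 13.3% against 20.9, 21.8 and 24.0% at 6 h, and 17.99, 14.4 and 17.1% against 27.9, 30.6 and 32.1% at 24 h. No libraries overlapped, and the log2 odds fell at each time, by 0.78 (SE 0.19, adjusted p = 0.0086), 1.13 (SE 0.18, adjusted p = 2.2e-04) and 1.14 (SE 0.18, adjusted p = 1.2e-04). The 2 h call was lost without dCBP-30 replicate 3 (-0.64, adjusted p = 0.074).

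In CDKN1A the share was 21.3, 23.5 and 25.6% against 33.3, 28.5 and 35.1% at 2 h, 17.2, 16.9 and 14.1% against 38.2, 32.9 and 38.3% at 6 h, and 21.7, 18.1 and 37.8% against 40.7, 43.8 and 43.1% at 24 h. All dCBP-30 libraries were below their DMSO libraries, with replicate 3 at 24 h the nearest. The log2 odds changed by -0.64 (SE 0.29, adjusted p = 0.26), -1.59 (SE 0.29, adjusted p = 8.0e-04) and -1.14 (SE 0.30, adjusted p = 0.0076), and the last call was lost without dCBP-30 replicate 2 (-0.84, adjusted p = 0.060).

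BTG2 and TP53INP1 differed in when the share was low. The BTG2 share was 61.2, 45.4 and 55.1% against 68.2, 76.7 and 75.2% at 2 h, 62.8, 66.0 and 66.9% against 68.9, 72.9 and 71.9% at 6 h, and 40.3, 41.7 and 47.7% against 84.1, 78.8 and 83.1% at 24 h. Its log2 odds changed by -1.27 (SE 0.26, adjusted p = 0.0022), -0.40 (SE 0.25, adjusted p = 0.40) and -2.59 (SE 0.24, adjusted p = 7.3e-08). At 24 h, when total BTG2 RNA was at or above DMSO, its T>C reads carried 1.56, 1.57 and 1.72 conversions each against 3.05, 3.15 and 2.92 in DMSO, and the part of this in the low share was not tested. The TP53INP1 share was 1.52, 1.61 and 2.12% against 17.9, 20.2 and 19.3% at 2 h, a fall of 3.70 in log2 odds (SE 0.36, adjusted p = 6.2e-08). At 6 and 24 h it was 12.1, 8.06 and 19.5% against 16.1, 17.5 and 18.8%, and 12.5, 11.96 and 19.8% against 22.0, 18.4 and 19.4%, with overlap and changes of -0.51 (SE 0.34, adjusted p = 0.44) and -0.54 (SE 0.31, adjusted p = 0.20).

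Over the 3 times together, with labels exchanged within each time (two-sided exact permutation test, 8000 permutations, smallest possible p 0.00025), the mean share was lower by 10.8 percentage points in MDM2, 15.3 in CDKN1A and 21.4 in BTG2, each at that smallest p of the exact test and in 9 of 9 dCBP-30 libraries. The percentage of T>C reads over all genes of a library, given above, was lower under dCBP-30 at each time too. In the edgeR fit relative to this library-wide share, every share call at a single time in MDM2, CDKN1A and BTG2 was kept. The part of the library-wide share in the differences of the exact test was not tested. In TP53INP1 the exact test gave a mean difference of -8.95 percentage points (p = 0.00325) and in SESN1 -6.55 (p = 0.0345). PHLDA3 (-5.39, p = 0.149), TP53I3 (0.797, p = 0.408), ZMAT3 (0.288, p = 0.941) and FAS (1.99, p = 0.837) did not pass this exact test, which was run on 9 genes and is given unadjusted. In ZMAT3 at 24 h, where total and new RNA both rose, the share was 10.7, 7.73 and 9.28% against 2.07, 9.52 and 11.7% and overlapped.

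**Figure D4:**
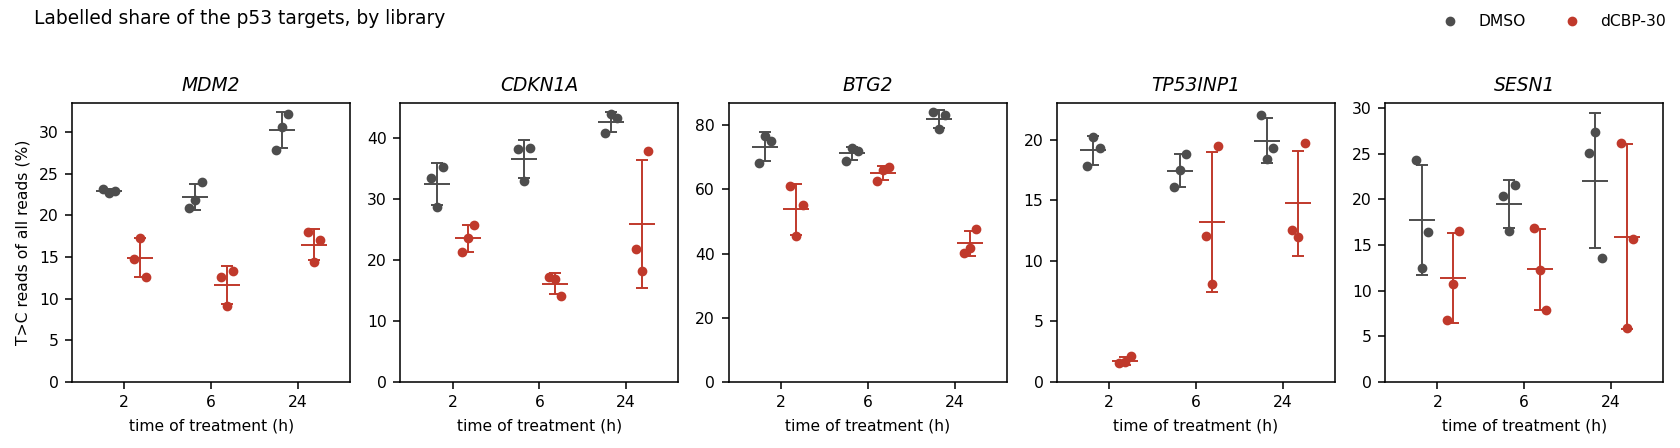
Labelled share of MDM2, CDKN1A, BTG2, TP53INP1 and SESN1 in every labelled library, in percent of the reads of the gene on the vertical axis. Shown are dCBP-30 and DMSO at 2, 6 and 24 h, with a point per library and a bar for the mean with its SD (n = 3). BTG2 stood highest under DMSO and dropped to 43.2 ± 3.92% at 24 h of dCBP-30, and TP53INP1 dropped at 2 h.

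The responses changed with time in the test of the difference between times (the interaction of treatment and time). For T>C reads at 6 h against 2 h 1 gene, BTG2, was less reduced, by 1.00 on the log2 scale (SE 0.23, adjusted p = 0.0023), and 0 were more reduced, also at an unadjusted p under 0.05 and by DESeq2, where 0.684% of all genes moved up and 7.35% down. At 24 h against 2 h BTG2 and TP53INP1 moved up, by 3.17 and 2.49, where 3.02% of all genes did. CDKN1A and MDM2 moved down, by -1.37 and -0.64, where 23.0% of all genes did. The median over all genes moved by -0.72 in this comparison, so the MDM2 value was near that of the median gene. In total reads BTG2, MDM2 and ZMAT3 moved up between 2 and 6 h and TP53INP1 down, where 5.05% and 10.7% of all genes moved so. Between 2 and 24 h BTG2, TP53I3 and ZMAT3 moved up, by 3.60, 2.56 and 2.44, and CDKN1A, TP53INP1 and MDM2 moved down, by -1.07, -0.50 and -0.38, where 18.4% and 22.8% of all genes did. The MDM2 differences, those of BTG2 and ZMAT3 in total reads at 6 h and that of TP53INP1 in total reads at 24 h were each lost when any of several single libraries was left out. Without the TMM factors the MDM2 and TP53INP1 differences at 24 h were also lost, at -0.22 in T>C reads of MDM2 and 0.0348 and -0.0858 in total reads of MDM2 and TP53INP1.

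dCBP-30 acts on the CBP and p300 proteins, and the total RNA of both genes rose at 6 and 24 h. At 2 h total EP300 changed by 0.49 (adjusted p = 0.16) and total CREBBP by 0.37 (adjusted p = 0.40), and at 6 h they rose by 0.71 (adjusted p = 0.0036) and 0.93 (adjusted p = 8.9e-04). Total EP300 RNA was 494, 594 and 614 RPM against 203, 130 and 144 RPM at 24 h, a rise of 1.83 (SE 0.19, adjusted p = 1.8e-08), and total CREBBP RNA 54.6, 54.4 and 46.9 RPM against 24.9, 17.1 and 24.7 RPM, a rise of 1.23 (SE 0.21, adjusted p = 1.6e-05). In T>C reads at 24 h EP300 rose by 0.94 (adjusted p = 1.1e-04) and CREBBP changed by -0.13 (adjusted p = 0.78), a sign that turned under other scaling.

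A wider list held 51 other p53 targets, and most of those tested did not pass at 2 or 6 h in T>C reads. Of the 45 with enough T>C reads, 5 fell and 2 rose at 2 h, 10 fell and 4 rose at 6 h, and 18 fell and 7 rose at 24 h, beside the shares of all genes given above, with median log2 changes of -0.03, -0.19 and -0.83. In total reads 46 were tested, and 2 fell and 2 rose at 2 h, against 2.67% of all genes lower and 1.54% higher. At 6 h 7 fell and 18 rose, against 21.5% lower and 18.8% higher. At 24 h 16 fell and 16 rose, against 29.9% lower and 28.6% higher. Dropping the TMM factors left 4 falls of new RNA after 6 h and 10 after 24 h, and the 2 falls of total RNA at 2 h became 0 or 1 in 5 of the 6 fits that left out 1 library. The 7 that rose at 24 h became 2 without dCBP-30 replicate 3, 3 without DMSO replicate 1 and 4 without DMSO replicate 3, and the 5 that fell at 2 h became 3 without DMSO replicate 2.

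Among the 13 tested genes of apoptosis, 4 fell and 0 rose in T>C reads at 2 h (0 also at an unadjusted p under 0.05 and by DESeq2), 6 fell and 2 rose at 6 h, and 6 fell and 3 rose at 24 h. Of all tested genes 8.35%, 21.3% and 37.1% fell and 2.45%, 3.02% and 2.78% rose at these times, which holds for the groups that follow as well. New RNA of TNFRSF10A, a TRAIL receptor, was 7.16 ± 2.86 RPM against 17.4 ± 2.83 RPM (SD, n = 3) at 2 h, a change of -1.27 (SE 0.25, adjusted p = 1.3e-04), and -2.99 (adjusted p = 6.5e-14) at 6 h. That of AEN, an exonuclease induced in apoptosis, was 2.69 ± 1.09 RPM against 43.9 ± 6.71 RPM at 6 h, a change of -4.02 (adjusted p = 2.8e-23), and -2.99 (adjusted p = 3.3e-19) at 24 h. EDA2R, a receptor of the TNF receptor family, had 4 T>C reads against 81 over the 3 libraries of each group at 6 h (-4.42, adjusted p = 3.0e-04).

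BBC3, which encodes the BH3-only protein PUMA, changed direction. It was 5.42 ± 1.57 RPM against 12.6 ± 0.643 RPM at 2 h, a log2 change of -1.20 (SE 0.23, adjusted p = 8.1e-05), and 54.3 ± 2.84 RPM against 14.5 ± 2.42 RPM at 24 h, a change of 1.91 (SE 0.22, adjusted p = 1.1e-10). APAF1, which forms the apoptosome, had 106 T>C reads against 3 over the libraries of each group at 6 h (adjusted p = 4.2e-04) and changed by 2.47 (SE 0.93, adjusted p = 0.028) at 24 h.

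Of the 15 tested genes of the cell cycle and signalling 0 fell and 1 rose in T>C reads at 2 h (4 fell at an unadjusted p under 0.05, and DESeq2 called 0), 4 fell and 1 rose at 6 h, and 7 fell and 3 rose at 24 h. The gene that rose at 2 h was SERTAD1, which encodes a partner of CDK4 and E2F, at 6.86 ± 1.58 RPM against 1.22 ± 0.572 RPM (2.49, SE 0.41, adjusted p = 4.4e-06), and it rose at 6 h as well (2.25, adjusted p = 1.5e-05). SFN, which encodes 14-3-3 sigma, had 2 T>C reads against 268 over the libraries of each group at 24 h (adjusted p = 1.2e-12). PLK3, whose 3′ UTR overlaps DYNLT4 on the opposite strand, fell by 2.83 (SE 0.47, adjusted p = 1.5e-06) at 24 h, and TNFRSF10D, a decoy TRAIL receptor, rose by 1.73 (SE 0.65, adjusted p = 0.027).

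Of 10 tested genes of metabolism, oxidants and autophagy 1 fell and 1 rose at 2 h, 0 fell and 1 rose at 6 h (0 fell also at an unadjusted p under 0.05 and by DESeq2), and 2 fell and 1 rose at 24 h in T>C reads. SESN2, the sestrin gene paralogous to SESN1, was 29.8 ± 5.06 RPM against 9.90 ± 0.998 RPM at 2 h (1.59, SE 0.21, adjusted p = 9.1e-09) and was higher at 6 h as well (1.38, adjusted p = 1.5e-07). CMBL was the gene that fell at 2 h, with 2 T>C reads against 43. Of 7 genes of DNA repair and nucleotide supply 0 passed the test in either direction at 2 and 6 h, by DESeq2 with size factors from total reads as well, while POLH was higher at 6 h at an unadjusted p under 0.05 and was called by DESeq2 with T>C size factors. DDB2, POLH and REV3L fell at 24 h. The 3′ UTR of POLH overlaps GTPBP2 on the opposite strand, and the regions read for DDB2 and REV3L were in 8 and 32 pieces.

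**Figure D5:**
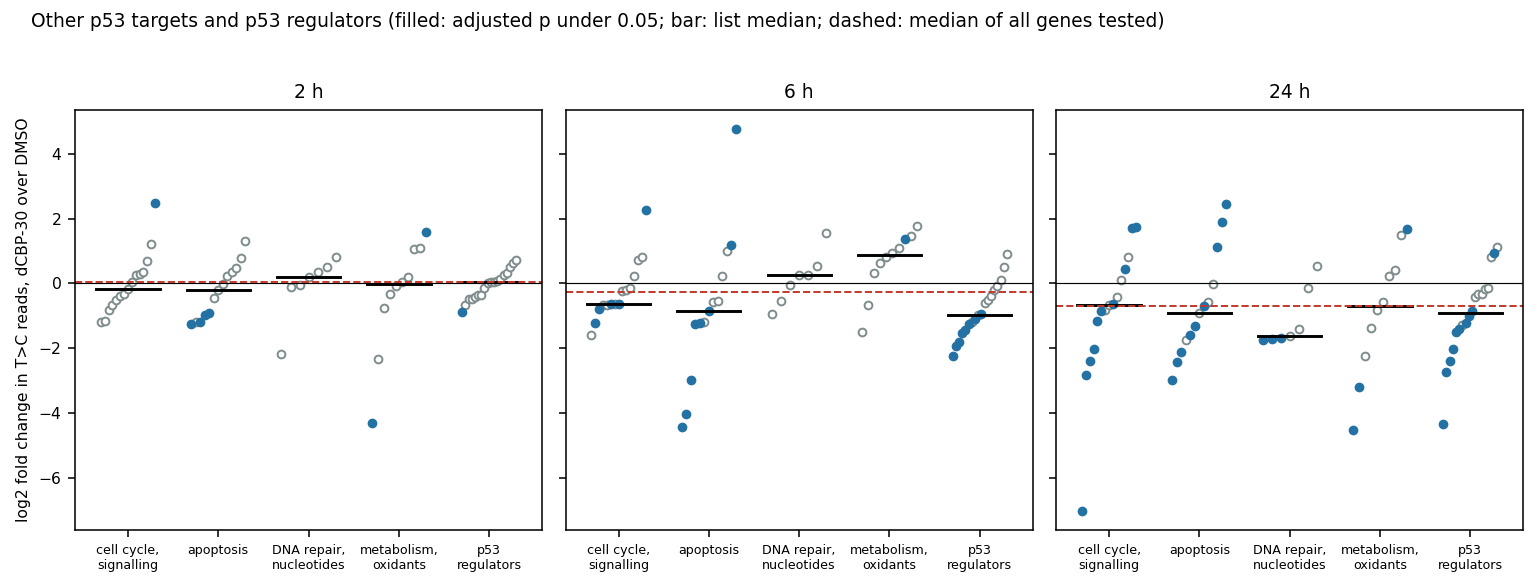
Log2 change of dCBP-30 over DMSO in T>C reads at 2, 6 and 24 h for the other p53 targets in 4 groups and the regulators of the pathway, with a point per tested gene, filled where the adjusted p was under 0.05, a black bar for the median of each group and a dashed red line for the median of all genes. Filled points stood on both sides of 0 among the apoptosis genes at 6 and 24 h, with medians of -0.86 and -0.91 where all genes had -0.27 and -0.69.

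Among 19 regulators and cofactors of the pathway, 18 were tested, and 1 fell in T>C reads at 2 h (MDM4, the MDM2 paralogue), 8 fell at 6 h and 9 fell at 24 h, with 0, 0 and 1 higher, where 8.35%, 21.3% and 37.1% of all genes fell and 2.45%, 3.02% and 2.78% rose. At 2 and 6 h 0 were higher at an unadjusted p under 0.05 and by DESeq2 with size factors from total reads. With other scaling CREBBP was higher at 6 h, by 0.90 (adjusted p = 0.0092) in DESeq2 with T>C size factors, 0.83 (adjusted p = 0.041) scaled by T>C reads and 0.84 (adjusted p = 0.045) without the TMM factors. HIPK2, a kinase that phosphorylates p53, fell by 2.25 (SE 0.25, adjusted p = 2.6e-10) at 6 h and by 2.39 (SE 0.25, adjusted p = 1.5e-11) at 24 h. PRMT5, an arginine methyltransferase, fell by 1.82 (SE 0.59, adjusted p = 0.017) and the checkpoint kinase gene CHEK2 by 1.92 (SE 0.72, adjusted p = 0.042) at 6 h. At 24 h CHEK1, whose 3′ UTR overlaps ACRV1 on the opposite strand, fell by 2.72 (SE 0.77, adjusted p = 0.0031), and RPL11, a ribosomal protein that binds MDM2, by 2.01 (SE 0.25, adjusted p = 1.1e-09). The regions read for CHEK2 and RPL11 were in 12 and 6 pieces.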

How the data were processed

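Libraries were prepared by the authors with a QuantSeq 3′ kit and sequenced single-end; per their methods, reads were trimmed with Trim Galore and processed with Slamdunk on hg38, over 3′ UTRs of the UCSC knownGene annotation. The authors deposited, for each of 20 libraries, counts of reads and of T>C reads per transcript (97466 transcripts). Of these, 89088 (91.4%) were matched by identifier to GENCODE 44; each of 19593 genes was represented by the transcript with most reads, and unmatched transcripts held 0.0789 to 0.199% of reads. The members and gene lists were chosen with earlier results of these data known. Groups were taken from the labels. Results for 1 listed gene are not reported here.

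Counts were tested with edgeR's quasi-likelihood test (version 4.0.16, R 4.3.3) in 1 fit over 6 groups, with genes kept by filterByExpr (minimum count 10) and Benjamini-Hochberg adjustment over all tested genes. T>C counts took the size of the total reads and their TMM factors, so 10083 genes were tested in T>C reads and 12267 in total reads. The labelled share was tested with T>C and other reads of each library in 1 fit, the change being a log2 odds. A gene passed at an adjusted p under 0.05. Other genes were named where they passed with over 2-fold change and averaged 20 or more T>C reads per library on their higher side, at most the 3 largest in each direction of each list and time; single genes outside this rule that a small count called for were chosen after their values were seen. No fold is given where a group held 1 to 3 T>C reads in all. The Drosophila spike-in of the methods entered no scaling here. The depth limits the T>C counts of low genes, and reads carry no molecular identifiers, so counting error is a lower limit. Alternatives were DESeq2 (1.42.0), scaling by T>C reads, no TMM factors, no filter, background subtraction with the libraries without 4sU, each time alone, the replicate number as a block, summed transcripts and leaving out each library. The labelled share was also fitted relative to the library-wide share. Summed transcripts for the share over all times were chosen after seeing the data. The fits were also run on simulated counts with known changes at 2 h only and the same spread for all genes. These counts held neither the broad loss of new RNA nor the lower conversions per T>C read at 24 h. Python 3.11.15 with pandas 2.3.3 and SciPy 1.17.1 served the permutation tests, and matplotlib 3.10.9 the plots.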

Additional observations from a re-analysis of the deposited data

Results flagged for a closer look

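These values stand out because the effect of dCBP-30 differed between 2 times in the test of that difference itself (treatment by time in edgeR's quasi-likelihood test, Benjamini-Hochberg adjusted). Between 2 and 6 h the T>C change of BTG2 moved by 1.00 (log2). Between 2 and 24 h the T>C changes of CDKN1A, MDM2, BTG2 and TP53INP1 moved by -1.37, -0.64, 3.17 and 2.49. The median over all genes moved by -0.72 in this comparison, so the MDM2 value was near that of the median gene. The shares of all genes that moved in each comparison are given in the results above. In total reads the changes of MDM2, BTG2, TP53INP1 and ZMAT3 moved by 0.42, 0.66, -2.24 and 1.07 between 2 and 6 h, and those of TP53I3, CDKN1A, MDM2, BTG2, TP53INP1 and ZMAT3 by 2.56, -1.07, -0.38, 3.60, -0.50 and 2.44 between 2 and 24 h.

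Calls on the smaller of these were lost when any of several single libraries was left out, with the direction kept in each such fit. The MDM2 T>C difference (adjusted p = 0.025) was lost without replicate 2 of DMSO or of dCBP-30 at either time or without DMSO replicate 3 at 24 h (-0.52 to -0.62). That in total MDM2 at 24 h was lost without DMSO replicate 1 or 2 at 2 h, DMSO replicate 2 at 24 h or dCBP-30 replicate 1 at 24 h (-0.31 to -0.37), and that at 6 h without any of DMSO replicates 2 and 3 at 2 h, DMSO replicates 1 and 3 at 6 h, the dCBP-30 replicates at 2 h, or dCBP-30 replicates 2 and 3 at 6 h (0.37 to 0.43). The total BTG2 difference at 6 h was lost without DMSO replicates 2 or 3 at 2 h, DMSO replicates 1 or 2 at 6 h, dCBP-30 replicates 1 or 3 at 2 h or dCBP-30 replicate 1 at 6 h (0.52 to 0.64). That of total ZMAT3 at 6 h was lost without DMSO replicate 3 or dCBP-30 replicate 1 at 2 h, or DMSO replicates 1 or 2 at 6 h (0.92 to 1.01). That of total TP53INP1 at 24 h was lost without any DMSO library of either time, dCBP-30 replicate 3 at 2 h or dCBP-30 replicate 2 at 24 h (-0.35 to -0.52).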

How the results depend on the processing

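Of 66 gene results that passed, 50 passed in the same direction under every alternative run, and 808 of 888 recomputed values kept the call, 75 kept only the direction and 5 turned. The replicate number as a block changed 2 of 96 gene results, total MDM2 at 6 h against 2 h (0.41, adjusted p = 0.0502) and PHLDA3 T>C reads at 6 h (0.23), and no other gene call. With the block 1 other target was lower in total reads at 2 h. Deviations from the group means correlated at -0.305 to 0.101 between same-numbered dCBP-30 and DMSO libraries. With 3 libraries in a group such deviations depend on each other, so low values cannot exclude that the numbers mark shared cultures.

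With DESeq2 on T>C size factors, scaling by T>C reads and no TMM factors, in that order, T>C reads at 24 h gave 3, 3 and 3 lower members and 9, 10 and 10 lower other targets, T>C reads at 6 h 4, 5 and 4 lower other targets, and T>C change from 2 to 24 h 1, 1 and 1 lower members (1 with summed transcripts too). All tested genes split 3738 lower to 280 higher in T>C reads at 24 h, 1833 to 1417, 1913 to 1027 and 2185 to 789 under these 3, and 3668 to 3514 in total reads, 2088 to 6094 without the factors. Values that turned under these 3 were CREBBP T>C at 24 h (0.62, 0.52, 0.39), PHLDA3 T>C at 24 h (0.30, 0.19, 0.10) and 6 h (0.28, 0.21, 0.26), BTG2 T>C at 24 h (0.21, 0.11 under the first 2) and MDM2 T>C from 2 to 24 h (0.0875, 0.0021 under the first 2). Without the factors total MDM2 turned at 6 h (0.31; DESeq2 0.0083) and from 2 to 24 h (0.0348), and total PHLDA3 at 24 h (0.27); 3 members and 10 other targets were lower in total reads at 24 h, 1 member lower from 2 to 24 h, and 0 other targets lower at 2 h (0 also with summed transcripts or that time alone). The PHLDA3 share at 24 h was 0.0802 relative to the library-wide share. Other targets higher in T>C reads at 24 h numbered 4 with background subtracted and with summed transcripts.

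Leaving out 1 library gave ranges that crossed 0 for EP300 T>C at 2 h (-0.0827 to 0.51) and 6 h (-0.11 to 0.28), total MDM2 at 6 h (-0.0544 to 0.0538), PHLDA3 T>C at 2 h (-2.19 to 0.11), 6 h (-0.63 to 0.66) and 24 h (-1.01 to 0.0330), its share (-0.80 to 0.19) and total (-0.43 to 0.0210) at 24 h, and the ZMAT3 share at 6 h (-1.62 to 0.0038) and 24 h (-0.24 to 0.91). Counts ranged from 3 to 5 (members lower in T>C at 24 h), 1 to 2 (T>C, 2 to 24 h, lower), 1 to 3 (total, 2 to 24 h, lower), 0 to 3 (total, 2 to 6 h, higher), 3 to 5 (other targets lower in T>C at 2 h), 2 to 7 (higher at 24 h) and 0 to 2 (lower in total at 2 h). Causes were not tested.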
